A study of Mus musculus with 4 samples.

Results

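The cytochrome P450 genes encode heme enzymes that oxidize fatty acids, sterols, steroid hormones, vitamins and drugs. Members were all genes on the array whose name is Cyp followed by a family number, a subfamily letter and a gene number, except Cyp26a1, Cyp26b1 and Cyp26c1, which break down retinoic acid. This rule gave 87 of 29924 gene names. It used no measured value.

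The study asked how ureters without the nuclear receptor PPARG respond to purmorphamine, an agonist of SHH signaling. Ureters of newborn (P0) NMRI mice were explanted and cultured for 8 d in the solvent DMSO or in 2 µM purmorphamine. The Pparg-cKO ureters were Pax2-cre/+; Pparg (fl/fl), and the control ureters, labelled Pparg (fl/?), came from littermates without cre and therefore also carried a floxed Pparg allele. Pax2-cre acts in the nephric duct and its derivatives, which include the epithelium of the ureter and of the collecting duct. The mesenchyme of the mutant ureter should therefore have kept its floxed alleles without recombination, which was not checked here. Each of the 4 groups had 2 pools of ureters, 1 male (replicate 1) and 1 female (replicate 2), and the number of ureters in a pool is not given in the sources used here. Both pools of a genotype and sex shared an array, with DMSO in AlexaFluor555 in the male arrays and in AlexaFluor647 in the female arrays, so that sex, dye and replicate number cannot be told apart.

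A cytochrome P450 takes electrons from the reductase POR in the endoplasmic reticulum, or from adrenodoxin in mitochondria, and places oxygen on its substrate. The family is best known from the liver, where CYP1, CYP2 and CYP3 enzymes metabolize foreign compounds, and from the adrenal gland and gonads, where a few members make steroid hormones. CYP4 enzymes hydroxylate fatty acids and eicosanoids, and several CYP4 genes are known targets of the PPAR receptors in liver and kidney.

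All values below are log2 normalized intensities of the brightest probe of a gene, and differences are on the same log2 scale. A background correction with an offset of 50 holds up the level of dim probes, so fold changes of dim members are understated. A level of a gene was compared only with other levels of that gene. The scanner software marked 66.3% to 70.5% of the spots as well above background per channel and 0 as saturated. All 12 urothelium markers (Krt5, Upk1b and others), all 6 smooth muscle markers (Acta2 and others) and all 6 fibroblast markers (Col1a1 and others) were above background in every pool. Of 6 liver markers, Alb and Apoa1 were above background in 0 of 8 pools and the other 4 in every pool. In RNA of whole ureters, fewer cells of a type and less RNA per cell cannot be told apart.

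Of the 87 members, 39 were well above background in all 8 channels, 12 in some channels and 36 in none. Each member was counted by its probe with signal in the most channels. Other probes of a member could be above background in none, as in Cyp2c38 and Cyp3a13. Per channel the number above background ranged from 42 to 49. A member was tested if 1 of its probes exceeded background in each pool of any group, which held for 45 members. The other 6 members with signal in some channels were Cyp2b10, Cyp2b19, Cyp2c29, Cyp2c65, Cyp2c66 and Cyp2c67, above background in 1 to 3 channels each. By role, the CYP4 fatty acid hydroxylases had 10 of 17 members above background in all channels and 7 in none. The CYP2 genes had 17 of 44 in all channels and 19 in none, and the CYP3 genes 1 of 7 and 3. Cyp7a1 and Cyp8b1 of bile acid synthesis, the vitamin D catabolic gene Cyp24a1, the aromatase gene Cyp19a1, the adrenal hydroxylase genes Cyp11b1 and Cyp11b2 and the liver gene Cyp3a11 were above background in no channel.

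**Figure D1:**
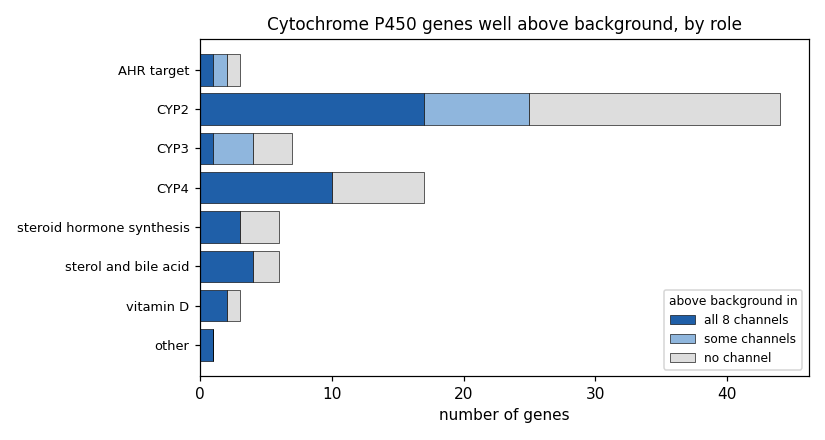
Number of cytochrome P450 genes (horizontal axis) in each role group (vertical axis) well above background in all 8 channels (dark blue), in some (light blue) or in none (grey). Each gene was counted by its probe with signal in the most channels. In the CYP2 group 17 of 44 genes, and in the CYP4 group 10 of 17, were above background in all channels.

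Most members differed little between the groups. For 28 of the 45 tested members, all 4 differences between genotypes and between treatments were smaller than 0.5. The median SD between both pools of a group was 0.12. In the fit with limma, 7 members passed an adjusted p of 0.05 in at least 1 comparison, namely Cyp4f15, Cyp4b1, Cyp3a25, Cyp3a57, Cyp3a59, Cyp2d12 and Cyp2d22. The threshold of the study, a change of 1.5-fold or more one way in each pair of pools at an intensity above 100, was met by 7 members in at least 1 comparison. Of these, 3 were also past the adjusted p (Cyp4f15, Cyp4b1 and Cyp2d22), and the others were Cyp1a1, Cyp2e1, Cyp2f2 and Cyp11a1. The same counts over several comparisons were not made for all genes, so they do not set the members apart from the rest of the array. Shares of all genes are given below for each comparison. Where an array was left out, 1 genotype kept a single array, so that the spread was estimated from less. A call lost or gained in such a fit can follow from this and need not mean a change in the size of a difference.

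In DMSO, 0 of 45 members were higher in Pparg-cKO ureters than in control ureters and 1 was lower (Cyp4f15), where limma called 1.97% of all 20229 genes tested higher and 1.87% lower. Before adjustment, at p under 0.05, 6 members were higher and 5 lower, beside 15.8% of all genes in either direction. By the threshold of the study, Cyp4b1 was higher and Cyp4f15 lower, beside 2.59% and 2.92% of the genes above that intensity. The median difference was -0.0041 for the members and 0.0038 for all genes.

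Under purmorphamine, 0 members were higher in Pparg-cKO ureters and 2 were lower (Cyp3a59 and Cyp4f15), beside 1.18% and 1.8% of all genes. Cyp3a59 entered the test only through the treated control group, the 1 group in which both its pools were above background, so that its call follows in part from the filter. At an unadjusted p under 0.05, limma had 1 member higher and 6 lower, beside 15.6% of all genes in either direction. By the threshold of the study, Cyp1a1 was higher and Cyp2e1 and Cyp4f15 lower, beside 3.06% and 3.23% of the genes above that intensity. The median difference was -0.0208 for the members and -0.0043 for all genes.

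Purmorphamine raised 3 members in control ureters (Cyp3a25, Cyp3a57 and Cyp4f15) and lowered 0, where limma called 0.356% of all genes higher and 1.07% lower. Before adjustment, at p under 0.05, 10 were higher and 4 lower, beside 19.7% of all genes in either direction. By the threshold of the study, Cyp2e1 and Cyp4f15 were higher and Cyp11a1 and Cyp2f2 lower, beside 2.76% and 3.69% of the genes above that intensity. The median difference was 0.0996 for the members and 0.0154 for all genes. All 3 calls were lost when either control array was left out, and 0 of the 3 passed with sex and dye as a term (adjusted p = 0.059 to 0.0704).

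In Pparg-cKO ureters purmorphamine raised 5 members (Cyp2d12, Cyp2d22, Cyp3a25, Cyp3a57 and Cyp4f15) and lowered 1 (Cyp4b1), beside 1.94% and 2.95% of all genes. When either Pparg-cKO array was left out, 1 raised member was still called (Cyp4f15), as it was with sex and dye as a term (adjusted p = 0.0279, and 0.0604 to 0.0677 for the other 4). By the threshold of the study, Cyp1a1, Cyp2d22 and Cyp4f15 were higher and Cyp4b1 lower, beside 3.88% and 4.79% of the genes above that intensity. The median difference was 0.026 for the members and -0.0024 for all genes. For the difference between the responses of the genotypes, 0 members and 0 of all 20229 genes passed, which is 0% in either direction, while before adjustment limma had, at p under 0.05, 3 higher members and 2 lower ones, beside 3.3% of all genes in either direction. The comparisons share pools, since each group enters both a genotype and a treatment comparison, so their values are not independent of each other.

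**Figure D2:**
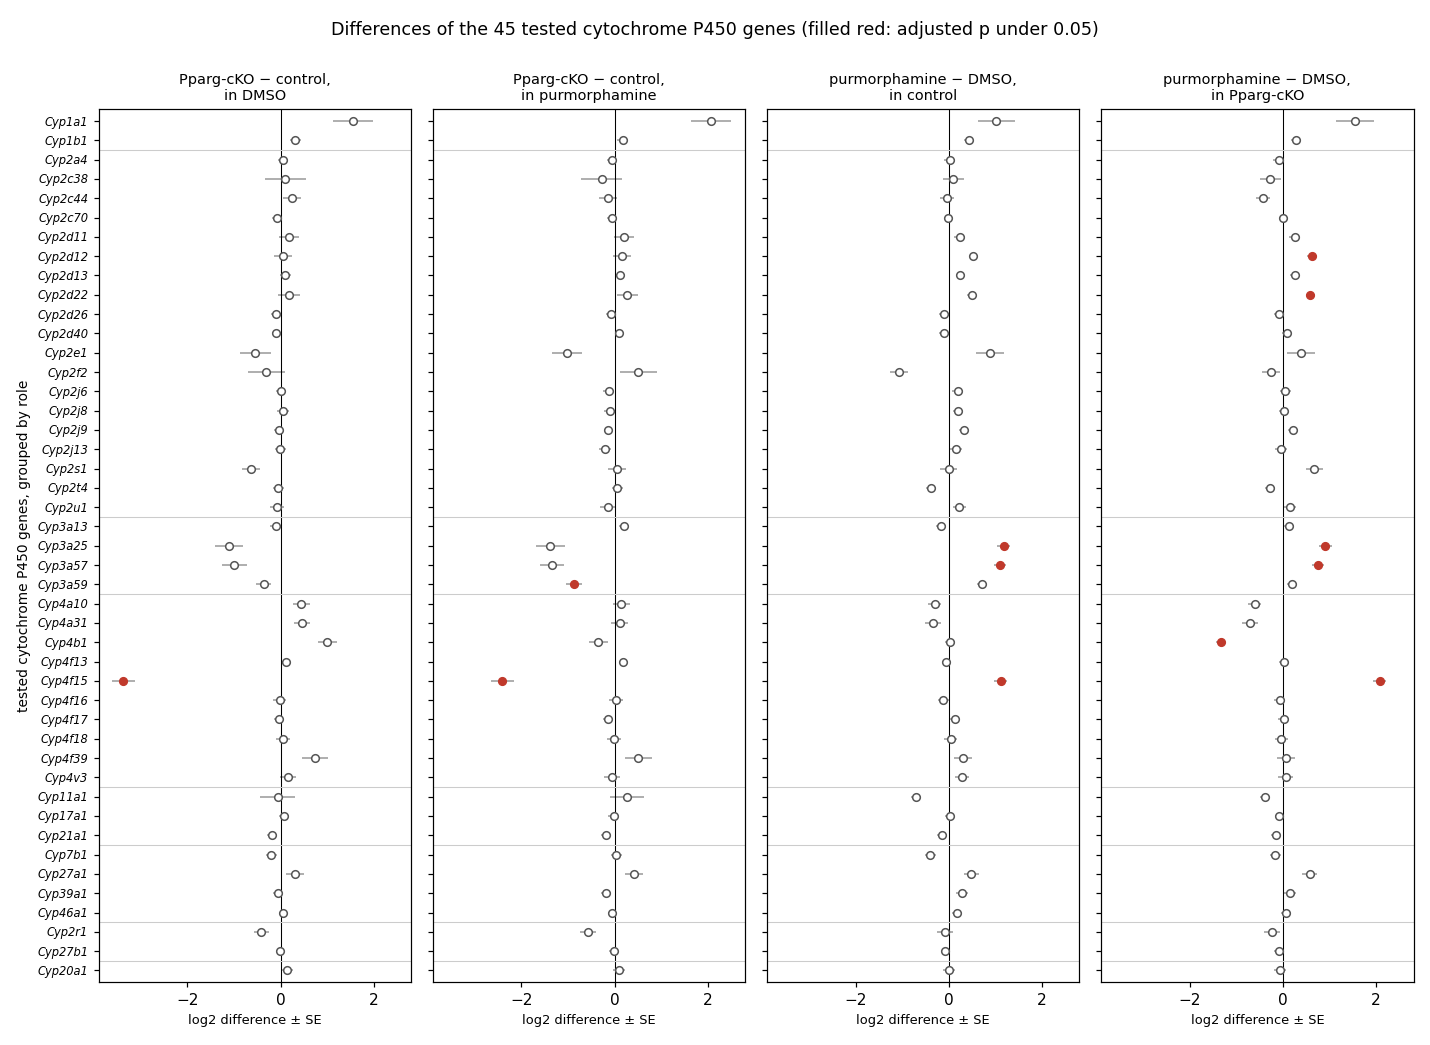
Log2 difference (horizontal axis, with the standard error from limma) of the 45 tested cytochrome P450 genes (vertical axis, grouped by role) in the 4 comparisons of 2 pools with 2 pools. Filled red points passed an adjusted p of 0.05, and Cyp4f15 lay at -3.37 and -2.41 in the genotype comparisons and at 1.11 and 2.07 in the treatment comparisons. Points of Cyp3a25, Cyp3a57 and Cyp3a59 that involve Pparg-cKO pools not above background are plotted as read and have only a bound.

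Cyp4f15 showed the largest difference of all tested members in both genotype comparisons. CYP4F enzymes hydroxylate leukotrienes and long-chain fatty acids. The probe of Cyp4f15 lies at chr17:32840088-32840147 (mm9, + strand), and whether it lies in coding or untranslated sequence was not analysed here. In DMSO its level was 11.00 in male and 11.61 in female control ureters, and with purmorphamine 12.25 and 12.59. In Pparg-cKO ureters it was 7.88 and 8.00 in DMSO and 9.77 and 10.25 with purmorphamine. The 4 groups did not overlap, and every Pparg-cKO pool, treated or not, lay below every control pool.

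The difference between the genotypes in DMSO was -3.37 ± 0.24 (SE, n = 2 pools per group), which is 10.3-fold lower in Pparg-cKO ureters (adjusted p = 0.00192). Leaving out the second control array gave -3.07 (adjusted p = 0.0505, with 0.00118 to 0.0505 over all alternatives). Under purmorphamine the difference was -2.41 ± 0.24, a 5.32-fold lower level (adjusted p = 0.0089). The adjusted p rose to 0.0734 without the first Pparg-cKO array, and to 0.07 and 0.096 without the first and the second control array, with differences of -2.17, -2.58 and -2.24. Purmorphamine raised Cyp4f15 2.17-fold in control ureters (1.11 ± 0.14, adjusted p = 0.0453) and 4.21-fold in Pparg-cKO ureters (2.07 ± 0.14, adjusted p = 0.0151). Without the first control array the value in control ureters was 0.98 (adjusted p = 0.159), and without the second 1.25 (adjusted p = 0.112). With the fold changes of the deposited value table the values were 1.16 and 2.47 (adjusted p = 0.152 and 0.0951). The response was larger in Pparg-cKO than in control ureters by 0.96 ± 0.20 (0.65 for males, 1.27 for females), which did not pass over all genes in limma (adjusted p = 1).

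Markers of the superficial urothelium were read beside Cyp4f15, and only some moved as it did. The level of Krt20, a keratin of superficial cells, was 13.62 and 14.02 in control ureters in DMSO and 10.03 and 10.21 in Pparg-cKO ureters, and there it rose by 2.43 ± 0.24 with purmorphamine (adjusted p = 0.0186). Upk3b in treated Pparg-cKO ureters, at 12.15 and 12.46, stayed below both control pools in DMSO (12.54 and 12.85). Upk1b, at 15.05 and 15.35 in treated Pparg-cKO ureters, lay above those control pools (14.63 and 14.96), as did Upk1a and Upk3a. The treated Pparg-cKO pools of Upk2 lay between them. Of the 12 urothelium markers 4 were lower and 1 was higher in Pparg-cKO ureters in DMSO, and with purmorphamine 5 were higher and 1 lower in Pparg-cKO ureters. The summed intensity of the 12 markers was 431341 to 485523 in control ureters in DMSO, 582713 to 645055 with purmorphamine, 368649 to 407955 in Pparg-cKO ureters in DMSO and 445218 to 463785 with purmorphamine. Their part in the result for Cyp4f15 was not tested.

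The array held 8 other Cyp4f genes. Cyp4f13, Cyp4f16, Cyp4f17 and Cyp4f18 were above background in all 8 channels, and all their differences in the 4 comparisons were smaller than 0.5. Cyp4f39, which is known for acylceramide synthesis in the skin, had levels of 9.02 and 9.21 in control ureters in DMSO and of 9.41 and 10.32 in Pparg-cKO ureters, a difference of 0.74 ± 0.28 that did not pass (adjusted p = 0.264). The level of 10.32 was read in the female Pparg-cKO pool in DMSO, where the summed intensity of 7 squamous epithelium markers was 217936, against 10863 to 24842 in the other 7 pools, and the part of squamous cells in the values of Cyp4f39 was not tested. Cyp4f14, Cyp4f37 and Cyp4f40 were above background in no channel.

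Cyp4b1, which encodes an oxidase of fatty acids and small aromatic compounds known from lung and kidney, fell with purmorphamine in Pparg-cKO ureters. Its probe lies at chr4:115297406-115297465 (mm9, - strand). The levels in Pparg-cKO ureters were 8.55 and 8.70 in DMSO and 7.27 and 7.32 with purmorphamine. In control ureters they were 7.87 and 7.37 in DMSO and 7.88 and 7.41 with purmorphamine. Both Pparg-cKO pools in DMSO lay above all other pools, and both treated Pparg-cKO pools below all others.

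The decrease of Cyp4b1 with purmorphamine in Pparg-cKO ureters was -1.33 ± 0.10, or 2.52-fold (adjusted p = 0.0151), and -1.28 without the second Pparg-cKO array (adjusted p = 0.0705, with 0.0131 to 0.0934 over all alternatives). In control ureters the difference was 0.02 ± 0.10 (adjusted p = 0.936). The responses of the genotypes differed by -1.36 ± 0.14, with -1.29 for males and -1.42 for females, which did not pass over all genes in limma (adjusted p = 0.858). In DMSO, Cyp4b1 was higher in Pparg-cKO than in control ureters by 1.01 ± 0.21 (2.01-fold), which met the threshold of the study and missed that of limma (adjusted p = 0.0523). Leaving out the first control array gave 1.26 (adjusted p = 0.0451), and 3 of 12 alternatives passed in all (0.0269 to 0.323).

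The Cyp4a genes encode omega-hydroxylases of fatty acids, and Cyp4a10 is a known PPARA target in liver and kidney. Cyp4a10 had levels of 7.30 and 6.71 in control ureters in DMSO, 6.76 and 6.65 with purmorphamine, 7.42 and 7.48 in Pparg-cKO ureters in DMSO and 6.85 and 6.83 with purmorphamine. Cyp4a31 had 7.25 and 6.71, 6.58 and 6.67, 7.41 and 7.47, and 6.74 and 6.72 in the same order. The other probes of Cyp4a31 were above background in 0 of 8 channels, and those of Cyp4a10 in 3 and 6. In both genes the Pparg-cKO pools in DMSO lay highest, and the male control pool in DMSO lay closer to them than to the female one. With purmorphamine in Pparg-cKO ureters the differences were -0.61 ± 0.15 and -0.70 ± 0.17 (adjusted p = 0.0895 and 0.0949). For Cyp4a31 the adjusted p was 0.0418 when either control array was left out. These 2 genes cannot be read as independent, because their probes matched at 44 of 47 overlapping bases. The stretches below, 30 bases of the probe of each gene as the array file gives them, are shown for this reason. The capital marks the base at which they differ.
Cyp4a10: acGagtttctccatcttccctcctttctgc
Cyp4a31: acAagtttctccatcttccctcctttctgc

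Among all 990 pairs of the 45 probes this was the 1 pair with 40 or more matching bases without gaps. The probes of Cyp4a10 and Cyp4a31 lie at chr4:115206200-115206259 and chr4:115251553-115251612 (mm9, + strand), on the same chromosome as Cyp4b1. The related genes Cyp4a12a and Cyp4a12b, whose names fall outside the rule, were above background in neither control pool in DMSO and were at least 1.58-fold and 1.66-fold higher in Pparg-cKO ureters (adjusted p = 0.0117 and 0.0156). Both genes entered the test only through the Pparg-cKO pools in DMSO, so that these calls follow in part from the filter.

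Of 6 tested kidney tubule markers, Slc12a1 and Umod were called higher in Pparg-cKO ureters in DMSO and lower there with purmorphamine, as Cyp4b1 was in the latter. Slc12a1 entered the test only through the Pparg-cKO pools in DMSO, so that its calls follow in part from the filter. Umod entered it only through the Pparg-cKO groups, so that its call between the genotypes does too. In DMSO, Lrp2 differed between the genotypes by 0.43, Aqp2 by -0.10, Cubn by -0.20 and Slc34a1 by -0.22, and none of these passed. Slc12a1, a salt transporter of the thick ascending limb, was above background only in both Pparg-cKO pools in DMSO, at 7.68 and 7.67, and lay at 6.10 to 6.42 in the other pools. Umod, which encodes uromodulin, was at 8.75 and 9.21 in the Pparg-cKO pools in DMSO and at 6.79 and 6.66 with purmorphamine. In the control pools Umod was above background only in the male DMSO pool, at 7.14. The summed intensity of the 8 kidney tubule markers was 1387 to 1522 in Pparg-cKO ureters in DMSO, 805 to 815 with purmorphamine, 756 to 1128 in control ureters in DMSO and 780 to 799 with purmorphamine. Slc12a3 of the distal tubule was above background in 0 of 8 pools. Of the squamous epithelium markers Krt6a was lower with purmorphamine in Pparg-cKO ureters by -1.69 ± 0.27 (adjusted p = 0.0416), and none of the 7 passed between the genotypes in DMSO. The part of kidney tissue or squamous epithelium in the values of Cyp4b1, Cyp4a10 and Cyp4a31 was not tested.

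**Figure D3:**
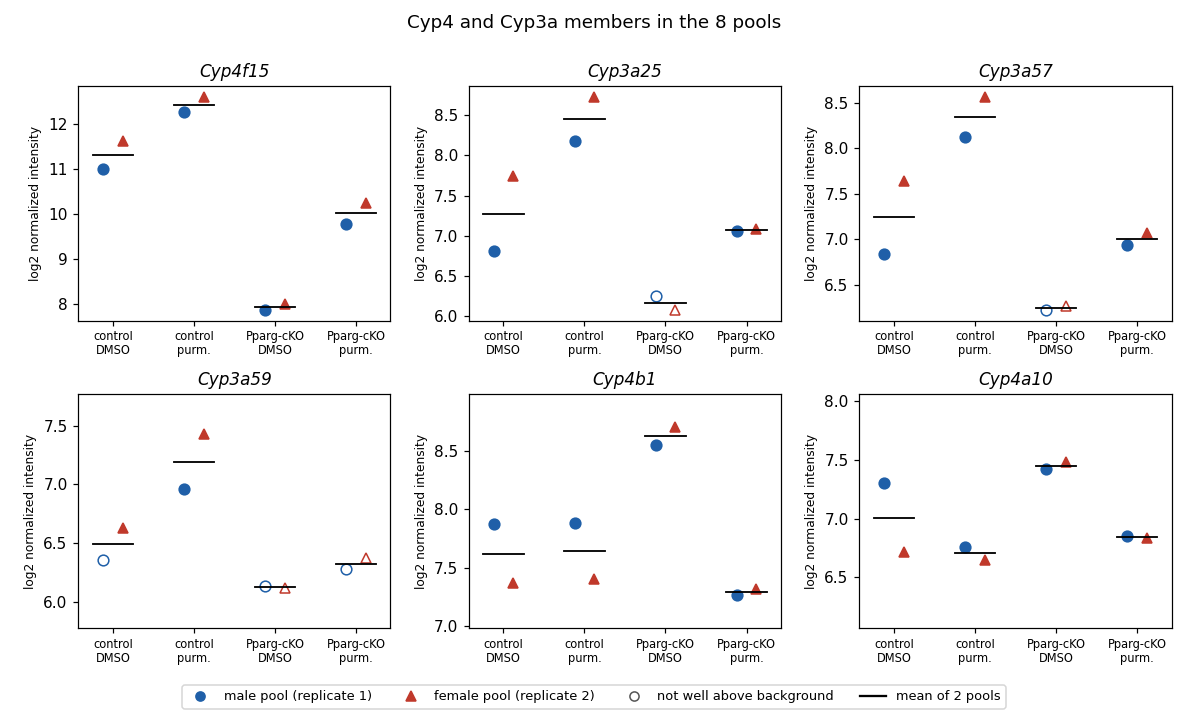
Log2 normalized intensity (vertical axis of each panel) of 6 CYP4 and CYP3 genes in the 4 groups (horizontal axis), with a circle for the male pool, a triangle for the female pool, open where the probe was not well above background, and a line for the mean. The 4 groups of Cyp4f15 do not overlap, Cyp3a25 and Cyp3a57 are open in both Pparg-cKO pools in DMSO, and Cyp4b1 is highest there.

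**Figure D4:**
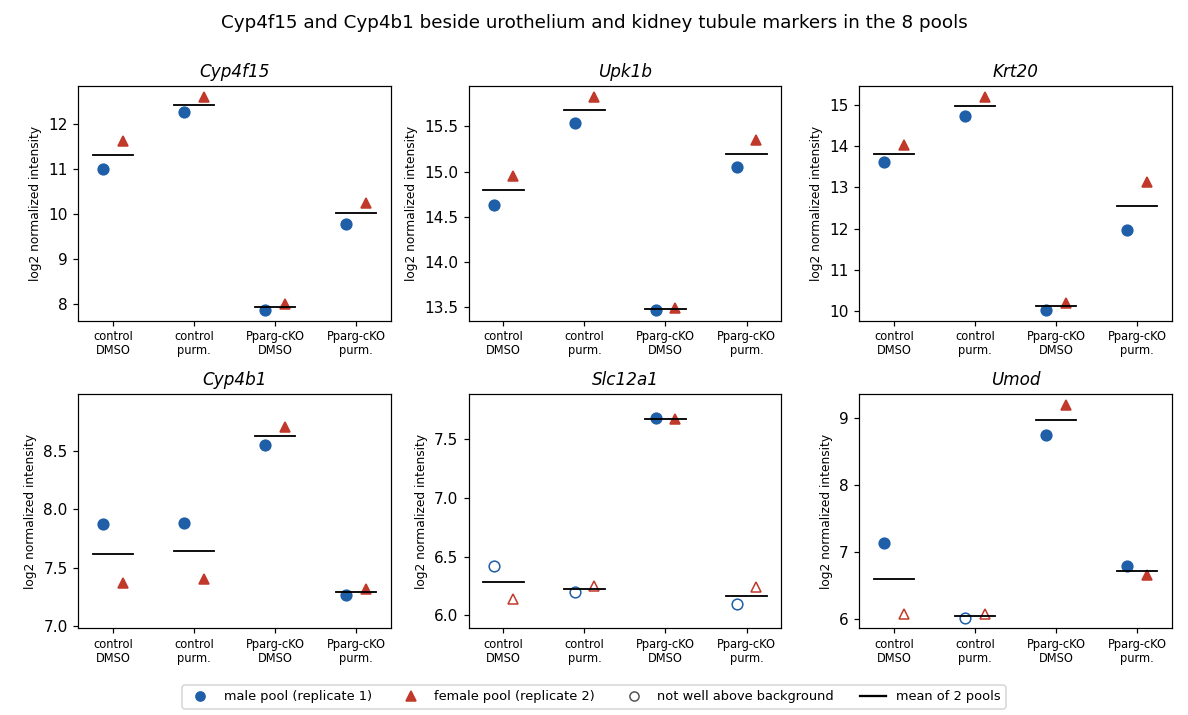
Log2 normalized intensity (vertical axis) in the 4 groups (horizontal axis) of Cyp4f15 beside the urothelium markers Upk1b and Krt20, and of Cyp4b1 beside the kidney tubule markers Slc12a1 and Umod, drawn as circles for male and triangles for female pools, open where not well above background. Krt20 is lowest in the Pparg-cKO pools in DMSO, at 10.03 and 10.21, and Umod is highest there, at 8.75 and 9.21.

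Cyp3a25 and Cyp3a57 rose with purmorphamine in both genotypes, and neither passed between the genotypes. CYP3A enzymes oxidize drugs, steroids and bile acids and are best known from liver and gut. Cyp3a25 had levels of 6.81 and 7.74 in control ureters in DMSO and of 8.18 and 8.73 with purmorphamine. Neither Pparg-cKO pool in DMSO was well above background, where 6.25 and 6.08 were read, and the Pparg-cKO ureters had levels of 7.06 and 7.08 with purmorphamine. Cyp3a57 had 6.83 and 7.64, 8.12 and 8.56, 6.22 and 6.27 (not well above background), and 6.93 and 7.07 in the same order. Both treated control pools lay above all other pools in both genes, and the treated Pparg-cKO pools lay between the male and the female control pool in DMSO.

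Purmorphamine raised Cyp3a25 2.26-fold in control ureters (1.18 ± 0.14, adjusted p = 0.0422) and at least 1.53-fold in Pparg-cKO ureters (adjusted p = 0.0372). It raised Cyp3a57 2.15-fold (1.10 ± 0.13, adjusted p = 0.0422) and at least 1.46-fold (adjusted p = 0.0464). A bound sets the brighter group against the lowest signal that was still above background. In control ureters, leaving out the first or the second array gave 0.99 and 1.36 for Cyp3a25 (adjusted p = 0.133 and 0.0979) and 0.92 and 1.28 for Cyp3a57 (adjusted p = 0.133 and 0.0979). In Pparg-cKO ureters the adjusted p was then 0.0755 and 0.265 for Cyp3a25 and 0.14 and 0.338 for Cyp3a57. Over all alternatives the adjusted p of these 4 results ranged from 0.0259 to 0.388, and all kept their direction. On the processed signals of the scanner software the increases in control ureters were 1.84 and 1.74 and did not pass (adjusted p = 0.0914 and 0.0894), and those in Pparg-cKO ureters passed (adjusted p = 0.0259 and 0.0263), with no size readable because the DMSO pools were not above background.

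Between the genotypes in DMSO, Cyp3a25 was at least 1.77-fold and Cyp3a57 at least 1.72-fold lower in Pparg-cKO ureters, and neither passed (adjusted p = 0.123 and 0.113). Both passed without the first control array (adjusted p = 0.039 and 0.0396) and on the processed signals (adjusted p = 0.036 and 0.04), again with no size readable against pools not above background. Under purmorphamine both genes were measured in all pools, and the differences were -1.38 ± 0.30 and -1.34 ± 0.26 (adjusted p = 0.0728 and 0.0512). Cyp3a59 was above background in both treated control pools, at 6.96 and 7.43, and in no Pparg-cKO pool. As the filter admitted Cyp3a59 only through the treated control pools, the following call is not independent of that filter. It was at least 1.67-fold lower in treated Pparg-cKO than in treated control ureters (adjusted p = 0.0485). Leaving out any of the 4 arrays ended that call (adjusted p = 0.0775 to 0.358), as did the processed signals (adjusted p = 0.0824). Cyp3a13 was above background in all 8 channels at levels of 6.90 to 7.26, with differences smaller than 0.5.

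The promoters of these 3 genes are shown because each was called in at least 1 comparison, beside those of Cyp4f15 and Cyp4b1, which moved in opposite directions with purmorphamine in Pparg-cKO ureters. Each stretch holds the 200 bases before the transcription start in RefSeq (GRCm38.p6), 5′ to 3′ on the strand of the gene. Capitals mark AGGTCA, the hexamer that nuclear receptors bind, or its reverse complement TGACCT. The stretches lie at chr5:146009618-146009817 (-) for Cyp3a25, chr5:145345069-145345268 (+) for Cyp3a57, chr5:146079058-146079257 (+) for Cyp3a59, chr17:32685459-32685658 (+) for Cyp4f15 and chr4:115647722-115647921 (-) for Cyp4b1.
Cyp3a25: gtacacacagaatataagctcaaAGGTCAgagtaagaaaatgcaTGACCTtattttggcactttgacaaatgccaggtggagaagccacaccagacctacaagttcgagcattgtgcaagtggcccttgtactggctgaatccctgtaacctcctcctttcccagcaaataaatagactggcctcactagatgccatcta
Cyp3a57: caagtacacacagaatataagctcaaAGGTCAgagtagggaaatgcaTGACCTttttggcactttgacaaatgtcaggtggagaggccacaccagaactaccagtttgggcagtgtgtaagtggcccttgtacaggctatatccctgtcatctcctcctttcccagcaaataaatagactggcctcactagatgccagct
Cyp3a59: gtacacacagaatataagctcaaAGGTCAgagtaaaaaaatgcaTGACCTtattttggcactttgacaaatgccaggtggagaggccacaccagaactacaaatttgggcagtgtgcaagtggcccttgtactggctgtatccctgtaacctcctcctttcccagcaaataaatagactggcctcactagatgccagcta
Cyp4f15: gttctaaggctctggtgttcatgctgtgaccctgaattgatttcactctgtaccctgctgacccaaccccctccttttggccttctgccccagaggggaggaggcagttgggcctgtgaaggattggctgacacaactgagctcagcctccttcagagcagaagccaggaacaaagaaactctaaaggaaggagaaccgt
Cyp4b1: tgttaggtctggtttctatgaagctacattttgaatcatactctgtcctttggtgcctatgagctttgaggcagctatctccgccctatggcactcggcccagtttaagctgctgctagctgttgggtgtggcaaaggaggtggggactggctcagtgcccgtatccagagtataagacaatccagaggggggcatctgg

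The 3 Cyp3a stretches were close copies of each other, with 191 of 200 aligned bases identical between Cyp3a25 and Cyp3a59, 182 of 204 between Cyp3a25 and Cyp3a57 and 186 of 203 between Cyp3a57 and Cyp3a59. Each held AGGTCA once on either strand, starting 177 and 156 bases before the start in Cyp3a25 and Cyp3a59 and 174 and 153 in Cyp3a57. Over all 32851 promoters of the table, which span 300 bases each, 16.26% held at least 1 AGGTCA on either strand and 1.81% at least 2. Of the 45 tested members 33 had an entry. Of these, 8 held at least 1 hexamer, and the 3 Cyp3a genes were those with 2. The stretches of Cyp4f15 and Cyp4b1 held 0 of these letters, and a direct repeat of the hexamer with 1 base between the copies was found in 0 of 33 members and in 0.04% of all promoters. The probes of Cyp3a25, Cyp3a57 and Cyp3a59 lie at chr5:146788879-146788938, chr5:146151322-146151381 and chr5:146920638-146920697 (mm9) and matched each other at no more than 27 of 60 bases. Whether transcripts of 1 of these genes bind the probe of another was not analysed here.

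Other liver genes were read beside the Cyp3a genes. Of the 6 liver markers, Alb and Apoa1 were above background in no pool and the other 4 in every pool, and 1 of these 4 was called. Ttr, which encodes transthyretin, was lower in Pparg-cKO ureters in DMSO by -3.59 ± 0.47 (adjusted p = 0.0118) and rose with purmorphamine there by 1.24 ± 0.19 (adjusted p = 0.0383). The paper names Ttr among the genes of superficial cells, so that its call does not stand for liver genes as a set. Fgb, a fibrinogen chain, differed with purmorphamine by -1.24 and -1.36 in control and Pparg-cKO ureters and Serpina1a, a protease inhibitor, by -0.73 and -0.86, opposite in sign to the Cyp3a genes (adjusted p = 0.136 to 0.224). The summed intensity of the liver markers was 2974 to 3753 in control ureters in DMSO, 4592 to 6075 with purmorphamine, 1270 to 1767 in Pparg-cKO ureters in DMSO and 1318 to 1740 with purmorphamine. The higher sum in treated control ureters came with Ttr, at 10.58 and 11.11 in DMSO and 11.67 and 12.25 with purmorphamine. Apoa2 stayed at 9.71 to 9.83 in the control pools. Their part in the values of the Cyp3a genes was not tested.

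The CYP1 genes, known targets of the dioxin receptor AHR, had their highest levels in treated Pparg-cKO ureters. In DMSO, Cyp1a1 had levels of 6.87 in male and 6.40 (not well above background) in female control ureters, and of 7.03 and 8.28 with purmorphamine. In Pparg-cKO ureters it had 8.06 and 8.32 in DMSO and 9.39 and 10.06 with purmorphamine. The treated pools of controls lay far apart, and the treated female control pool fell within the range of the Pparg-cKO pools in DMSO. Between the genotypes the difference was 1.55 ± 0.43 (2.94-fold) in DMSO and 2.07 ± 0.43 (4.2-fold) under purmorphamine (adjusted p = 0.124 and 0.06). With purmorphamine it was 1.02 ± 0.41 in control and 1.54 ± 0.41 in Pparg-cKO ureters (adjusted p = 0.264 and 0.11). The threshold of the study was met under purmorphamine and in Pparg-cKO ureters, while in control ureters the male pair differed by 0.17 and the female pair by 1.88.

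Cyp1b1, which encodes an oxidase of estrogens and aromatic hydrocarbons, had levels of 13.89 and 14.04 in control ureters in DMSO and 14.27 and 14.50 with purmorphamine, and of 14.20 and 14.35 and of 14.52 and 14.59 in Pparg-cKO ureters. Both treated pools lay above both DMSO pools in either genotype, with differences of 0.42 ± 0.10 and 0.28 ± 0.10 that did not pass (adjusted p = 0.122 and 0.192). Cyp1a2 was above background in no channel. Other AHR targets were read beside them. Ahrr, the repressor of AHR, differed with purmorphamine by 0.98 ± 0.23 in control and 0.84 ± 0.23 in Pparg-cKO ureters (adjusted p = 0.117 and 0.115), and Tiparp by 0.44 ± 0.18 and 0.73 ± 0.18 (adjusted p = 0.281 and 0.101). None of these passed.

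Within the CYP2 genes, which hold drug and arachidonate oxidases, 2 of 19 tested members were called, both raised by purmorphamine in Pparg-cKO ureters, where 1.94% of all genes were called higher. Cyp2d12 had levels of 7.78 and 7.47 in DMSO and 8.47 and 8.04 with purmorphamine there, and of 7.75 and 7.39 and of 8.21 and 7.98 in control ureters. Cyp2d22 had 8.41 and 7.97 and 9.03 and 8.52 in Pparg-cKO ureters, and 8.16 and 7.87 and 8.68 and 8.33 in control ureters. In both genes and both genotypes each treated pool lay above both DMSO pools, and the male pool above the female one.

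The increase in Pparg-cKO ureters was 0.63 ± 0.10 for Cyp2d12 (1.55-fold, adjusted p = 0.0452) and 0.59 ± 0.10 for Cyp2d22 (1.5-fold, adjusted p = 0.0465). In control ureters it was 0.53 ± 0.10 and 0.49 ± 0.10, which did not pass (adjusted p = 0.0945 and 0.0972), and the responses of the genotypes differed by 0.10 ± 0.15 and 0.09 ± 0.14. Without the first or the second Pparg-cKO array the increase was 0.57 and 0.69 for Cyp2d12 and 0.54 and 0.63 for Cyp2d22. Both calls were lost when any of the 4 arrays was left out, where a genotype kept a single array and the spread was estimated from less. Cyp2d11 and Cyp2d13 differed with purmorphamine by 0.23 to 0.26 in both genotypes and did not pass, and Cyp2d26 and Cyp2d40 differed by 0.11 or less in size. The probes of the Cyp2d genes matched each other at no more than 28 of 60 bases.

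Cyp2e1, an oxidase of ethanol and ketones, had levels of 13.18 and 13.65 in control ureters in DMSO and 14.12 and 14.46 with purmorphamine. In Pparg-cKO ureters it had 13.04 and 12.72 in DMSO and 12.79 and 13.74 with purmorphamine. Among the Pparg-cKO pools the treated male one fell between both DMSO pools, and the treated female one lay above them. The threshold of the study was met by the increase in control ureters (0.88 ± 0.30, adjusted p = 0.211) and by the lower level in treated Pparg-cKO ureters (-1.03 ± 0.33, adjusted p = 0.188), and limma called neither. For the first, the adjusted p was 0.0412 without either Pparg-cKO array. Fat cell markers were read beside Cyp2e1. The summed intensity of the 6 markers was 196087 to 316907 in control pools, 108771 to 151498 in 3 Pparg-cKO pools and 22067 in the treated male Pparg-cKO pool. None of the 5 tested markers passed in any comparison, and Plin1, which coats fat droplets, had its lowest level in that pool at 8.81. The part of fat in the values of Cyp2e1 was not tested.

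Cyp2s1, an epithelial member that oxidizes retinoids and eicosanoids, had levels of 12.35 and 12.29 in control ureters in DMSO and 11.61 and 11.77 in Pparg-cKO ureters, and of 12.53 and 12.10 and of 12.57 and 12.15 with purmorphamine. Both Pparg-cKO pools in DMSO lay below all others. The differences of -0.63 ± 0.19 between the genotypes in DMSO and of 0.67 ± 0.18 with purmorphamine in Pparg-cKO ureters did not pass (adjusted p = 0.158 and 0.114). Cyp2f2, known from the club cells of the airway, had 10.81 and 9.55 in control ureters in DMSO and 9.41 and 8.82 with purmorphamine. Its decrease of 2.1-fold in control ureters (-1.07 ± 0.19, adjusted p = 0.0848) met the threshold of the study, and in Pparg-cKO ureters the difference was -0.27 ± 0.19. Cyp2c38 was the least even member, with 8.21 in male and 9.67 in female Pparg-cKO ureters in DMSO, the pool with the high squamous markers, and their part in its value was not tested.

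**Figure D5:**
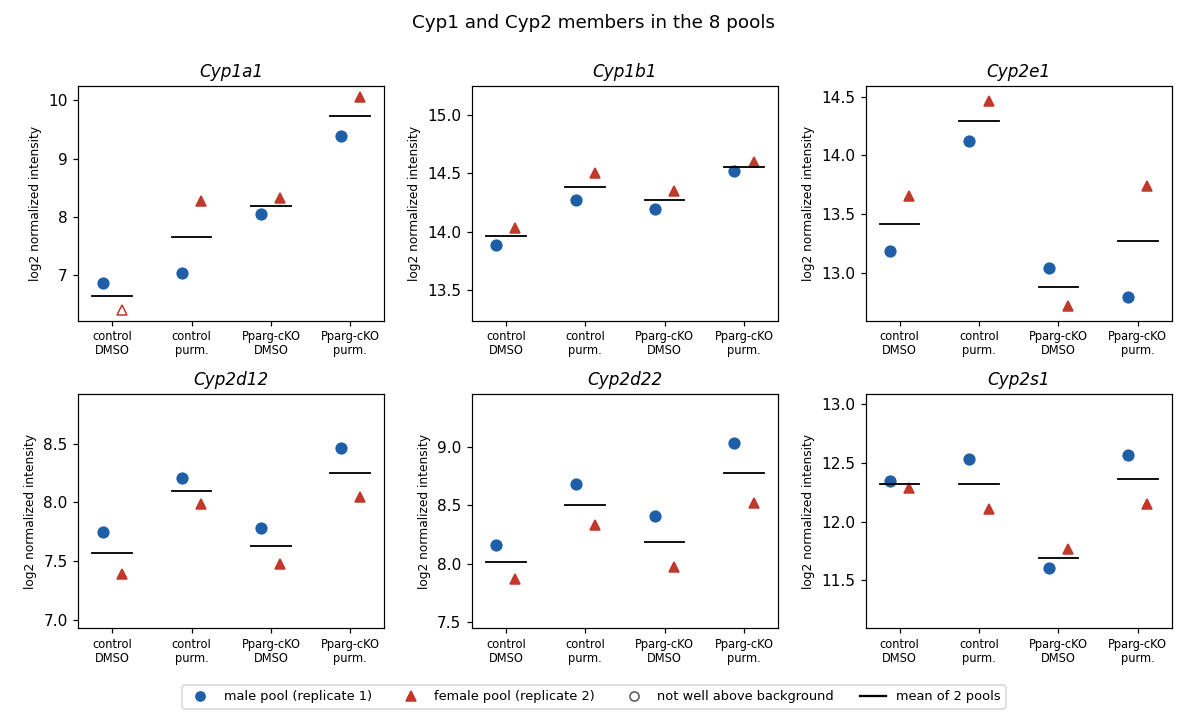
Log2 normalized intensity (vertical axis of each panel) of 6 CYP1 and CYP2 genes in the 4 groups (horizontal axis), with a circle for the male pool, a triangle for the female pool, open where the probe was not well above background, and a line for the mean. Cyp1a1 rises from 6.40 and 6.87 in control ureters in DMSO to 9.39 and 10.06 in treated Pparg-cKO ureters, and Cyp2e1 is spread from 12.79 to 13.74 in the latter.

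Neither the remaining CYP2 members nor Cyp20a1, which is outside that group, were called. The Cyp2j genes encode epoxygenases of arachidonic acid, and Cyp2j6, Cyp2j8, Cyp2j9 and Cyp2j13 had differences of -0.21 to 0.32 in the 4 comparisons, of which none passed. Cyp2u1, a hydroxylase of fatty acids, lay at 15.12 to 15.53 in all 8 pools. Cyp2c44, an epoxygenase known from the kidney, differed with purmorphamine in Pparg-cKO ureters by -0.43 ± 0.15 (adjusted p = 0.182). Cyp2t4 differed by -0.38 ± 0.11 in control ureters (adjusted p = 0.156). Cyp20a1, an orphan member, lay at 12.10 to 12.46 in all pools. Cyp2a4 was above background in 4 of 8 channels, and Cyp2c70 in all 8 at 6.80 to 7.04.

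Members of sterol, bile acid and vitamin D metabolism were measured in part, and none of these genes was called. Cyp27a1, the sterol hydroxylase of mitochondria, had levels of 10.90 and 11.32 in control ureters in DMSO, 11.66 and 11.51 with purmorphamine, 11.62 and 11.23 in Pparg-cKO ureters in DMSO and 12.13 and 11.87 with purmorphamine. Its treated pools lay above the DMSO pools of the same genotype, by 0.48 ± 0.16 in control and 0.57 ± 0.16 in Pparg-cKO ureters (adjusted p = 0.207 and 0.128). Cyp7b1, the oxysterol hydroxylase, differed by -0.40 ± 0.11 in control ureters (adjusted p = 0.165) and by -0.16 ± 0.11 in Pparg-cKO ureters. Cyp39a1 and Cyp46a1, which hydroxylate oxysterols and cholesterol, had differences of -0.19 to 0.28. Cyp2r1, the vitamin D 25-hydroxylase, had 8.66 and 8.20 in control ureters in DMSO and 7.92 and 8.12 in Pparg-cKO ureters, and 8.28 and 8.41 and 7.75 and 7.81 with purmorphamine. The treated groups did not overlap, and the difference between them was -0.57 ± 0.17 (adjusted p = 0.151). Cyp27b1, which activates vitamin D, lay at 6.77 to 7.0 in all pools.

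Of the steroid hormone genes, Cyp11a1, Cyp17a1 and Cyp21a1 were above background in all 8 channels and none was called. Cyp11a1, which cleaves the side chain of cholesterol, had 9.31 and 8.99 in control ureters in DMSO, 8.60 and 8.27 with purmorphamine, 8.69 and 9.49 in Pparg-cKO ureters in DMSO and 8.20 and 9.21 with purmorphamine. It met the threshold of the study as a decrease with purmorphamine in control ureters, where both pairs were lower by a similar amount (male pair -0.71, female pair -0.72, adjusted p = 0.0627). Of the other adrenal markers, Star and Mc2r were above background in all 8 pools and Hsd3b1 in 0. In DMSO, Mc2r was lower in Pparg-cKO ureters by -1.08 ± 0.20 (adjusted p = 0.0376), while Star differed by -0.06 ± 0.09 (adjusted p = 0.845). The summed intensity of the 4 adrenal markers, with Cyp11a1 among them, ranged from 1287 to 3169, and their part in the values of Cyp11a1 was not tested. Cyp17a1 lay at 7.18 to 7.44 and Cyp21a1 at 7.38 to 7.84.

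The partners of the P450 enzymes changed little. Of 9 electron donors, all tested, 1 was called in the 4 comparisons, namely Cyb5b, a cytochrome b5 of mitochondria, lower in treated Pparg-cKO than in treated control ureters by -0.52 ± 0.08 (adjusted p = 0.0283). Por, the reductase that serves most members, had levels of 13.99 and 14.00 in control and 13.55 and 13.53 in Pparg-cKO ureters in DMSO. Its difference of -0.46 ± 0.10 did not pass (adjusted p = 0.0621). Of 12 tested genes of heme synthesis and breakdown limma called 0 in the 4 comparisons (0 to 2 at an unadjusted p under 0.05), with the largest difference for Hmox1, the heme oxygenase, at -0.58 (adjusted p = 0.435).

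Of 18 tested regulators of P450 genes, 3 were lower in Pparg-cKO ureters in DMSO and 0 higher, beside 1.87% and 1.97% of all genes. These were the receptor genes Ppara (-1.13 ± 0.19, adjusted p = 0.0293), Nr1h3, which encodes LXRA (-1.33 ± 0.24, adjusted p = 0.0368), and Ppard (-0.49 ± 0.09, adjusted p = 0.0411). Under purmorphamine, Ppara and Nr1h3 were lower (adjusted p = 0.0299 and 0.0379). The lowest level of Nr1h3, 10.41, was read in the treated male Pparg-cKO pool, where the fat cell markers were lowest. The part of fat in the values of Nr1h3 was not tested. Purmorphamine changed 0 of the 18 in either genotype by limma, with 6 in control and 5 in Pparg-cKO ureters at an unadjusted p under 0.05. Nr1i2, which encodes the xenobiotic receptor PXR, was above background in 0 of 8 pools. Whether the probe for Pparg lies within the floxed exons was not analysed here, so its level does not check the genotype. Its differences of 0.51 ± 0.17 and 0.89 ± 0.17 between the genotypes did not pass (adjusted p = 0.205 and 0.0506).

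Of the other P450 and related genes fixed beside the members, Ptgis, the prostacyclin synthase, fell with purmorphamine in control ureters by -0.99 ± 0.13 (adjusted p = 0.0478) and differed by -0.67 ± 0.13 in Pparg-cKO ureters (adjusted p = 0.0566). Tbxas1, the thromboxane synthase, differed by -1.02 ± 0.17 and -0.88 ± 0.17 (adjusted p = 0.0743 and 0.0577). Cyp51, the sterol demethylase of cholesterol synthesis, differed by -0.69 ± 0.15 and -0.81 ± 0.15 (adjusted p = 0.109 and 0.0561). Macrophage markers were read beside Tbxas1 and Ptgis. Of 5 tested markers 2 fell with purmorphamine in either genotype, namely Mrc1 (-1.78 in control and -1.57 in Pparg-cKO ureters) and Cd14 (-0.93 and -0.66). The summed intensity of the 5 markers was 172414 to 217218 in the DMSO pools and 111252 to 154236 in the treated pools, and their part in the values of Tbxas1 and Ptgis was not tested. The epoxide hydrolase gene Ephx4 was higher in Pparg-cKO ureters by 0.78 ± 0.09 in DMSO and 0.55 ± 0.09 under purmorphamine (adjusted p = 0.0096 and 0.0371), and the 3 other epoxide hydrolases tested were not called. Among them Ephx2, the soluble epoxide hydrolase, differed by -2.07 ± 0.61 and -2.38 ± 0.61 (adjusted p = 0.148 and 0.108). Its lowest level, 8.36, was read in the treated male Pparg-cKO pool, where the fat cell markers were lowest. The part of fat in the values of Ephx2 was not tested.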

How the data were processed

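Each of 4 arrays compared the purmorphamine and DMSO pools of 1 genotype and sex. Per the file headers, the authors' scanner software gave mean and background intensity for each spot and dye, a processed intensity (background-subtracted and dye-normalized), flags and a log10 ratio of red over green. The submitters' processing notes name Agilent Feature Extraction 10.7.3.1. The deposited value table gives a signed fold change per probe, a score with no fixed range. Its normalization is not given in the sources used here, its medians were 0 on the log2 scale, and it correlated across probes with the log ratios computed here at 0.970 to 0.977 and the same sign. Depth is not defined for arrays, and the number of pools limits the precision. Nothing in the labels says how many ureters a pool held, so p-values measure only the spread between 2 pools per group.

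Here the mean intensities were corrected with normexp (offset 50) and normalized by loess and Aquantile in limma 3.58.1 (R 4.3.3), without control spots and outlier spots. A probe was above background in a channel if at least 3 of its 4 spots were flagged so, and was tested if this held in both pools of a group. The brightest of the probes stood for a gene (20229 genes from 27064 probes). Genotypes were compared with the separate-channel fit (intraspot correlation 0.0522), purmorphamine and DMSO with the log ratio turned the same way on all arrays, and their difference between genotypes (interaction) as a contrast. P-values were adjusted by Benjamini-Hochberg over all genes. The rule of the study's methods was applied to the processed intensities (75th percentile set to 1500, floor 15). The scripts were tested on simulated data. The fits were repeated with the processed intensities, an offset of 16, median centring or quantile normalization, other filters on dim probes, the mean over probes, the replicate number as a block, the value table, and leaving out each array.

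Members named were all those past an adjusted p of 0.05 or meeting the rule of the methods, the 5 with the largest difference each way in each comparison, those tested with a role in AHR, vitamin D, sterol or steroid biology, and at least 2 of each other role. The members and lists were chosen with earlier results of these data known. Probe positions are those of the array file (mm9).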

Additional observations from a re-analysis of the deposited data

How the results depend on the processing

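The number of cytochrome P450 genes called stayed within 1.5 times in 88 recomputations and moved further in 38. In the interaction it was 0 throughout. In DMSO, 1 gene in place of 0 was higher in Pparg-cKO ureters by the rule of the methods, with the mean over probes and with crossed replicate numbers as a block, an alternative chosen after seeing the data (Cyp4b1 in each), and without a filter on dim probes (Cyp4a32), and 3 in place of 1 were lower on the processed signals. Leaving out arrays gave 0 to 1 higher and 0 to 3 lower. Under purmorphamine, 1 in place of 0 was higher by the rule of the methods, and 1 in place of 2 was lower (Cyp4f15) with the filter on all 8 channels, no filter, an offset of 16, the processed signals and quantile normalization, and 0 to 1 without single arrays. With purmorphamine in control ureters, 1 in place of 3 was higher with the filter on all 8 channels, and 0 with the value table, no filter, the processed signals and the replicate block, and 0 to 4 without single arrays, while the rule of the methods gave 2 lower in place of 0. In Pparg-cKO ureters, 3 in place of 5 were higher with the filter on all 8 channels and by the rule of the methods, 2 with median centring, 1 with no filter and with the replicate block, 0 with the value table, and 1 to 4 without single arrays. Lower there were 0 with the value table in place of 1, and 0 to 2 without single arrays. For single genes 519 recomputations kept direction and side of the threshold, 61 lost and 15 gained a call, and 4 reversed, all in the interaction, where no call was made. The interaction of Cyp1a1 was -0.15 on the processed signals and ranged from -0.34 to 1.37 without single arrays, that of Cyp2c38 from -0.80 to 0.045 and that of Cyp2e1 from -1.12 to 0.15. The causes of these changes were not tested.

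The replicate number was checked as a pairing. Deviations of same-numbered pools correlated at -0.149 in DMSO, 0.470 under purmorphamine and 0.121 in the log ratio, and since not every correlation exceeded 0.1 the numbers were not taken as pairs. Same-numbered pools share the sex and the dye orientation, which the block also takes out. With the replicate block, purmorphamine raised 1 gene in Pparg-cKO and 0 in control ureters (0.0279 for Cyp4f15 in the former by adjusted p of limma).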
